A study of Mus musculus with 28 samples.

Results

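The genes described here code for 10 scavenger and phagocytic receptors: Marco, Msr1, Cd36, Cd68, Cd163, Mrc1, Stab1, Scarb1, Scarb2 and Clec4e. They were taken by symbol from a table of 40021 genes measured in microglia sorted from 28 single mouse retinas, and all 10 were among the 13164 genes that passed the filter for testing. Marco passed that filter through the 18 h group, since 6 retinas reached an RPKM of 1 and 1 of these was outside 18 h. RPKM gives reads relative to transcript length and to the reads of the library, so that levels of different genes may be set side by side.

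All retinas came from male mice heterozygous for Cx3cr1CreER:R26-tdTomato on a C57BL/6 background. In these mice a Cre recombinase under the control of the fractalkine receptor gene turns on a red fluorescent protein after tamoxifen, so the label depends on Cx3cr1 being active. The study also found part of the microglia labelled without tamoxifen, so labelling was not limited to the time of induction. Tamoxifen was given to the eye for 3 days from an age of 4 to 5 weeks, also in the naïve mice, and 4 weeks passed before the experiment. Endotoxin-induced uveitis (EIU), an acute inflammation of the eye, was then induced with 10 ng lipopolysaccharide (LPS) injected into the vitreous. The naïve group of 10 retinas had no injection, and microglia were collected from 6 retinas after 4 h, from 5 after 18 h and from 7 after 2 weeks. From each retina 600 live tdTomato-positive cells were sorted and their polyadenylated RNA was amplified. The 2 experiments gave 6 and 4 of the naïve retinas, 3 and 3 of those after 4 h, 4 and 1 of those after 18 h, and 4 and 3 of those after 2 weeks. The labels do not say which retinas shared a mouse, so p-values measure the spread between retinas, of which some may be fellow eyes.

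Scavenger receptors are surface proteins of macrophages that bind modified lipoproteins, polyanions, dead cells and microbes, and most of them carry their cargo into the lysosome. MARCO and MSR1 belong to class A, trimeric proteins with a collagen-like stalk. CD36, SCARB1 and SCARB2 belong to class B and take up or move lipids. CD68 sits mainly in the lysosomal and endosomal membrane. CLEC4E, also known as Mincle, is a C-type lectin that signals through the Fc receptor gamma chain. CD163, MRC1 and STAB1 are endocytic receptors best known from perivascular and other tissue macrophages, where they clear haemoglobin complexes, mannosylated glycoproteins and matrix fragments.

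The promoters of Marco, Cd36 and Clec4e are shown because these genes rose together at 18 h, and that of Scarb2 because it fell at the same time. Each line gives the 250 bases before the start of the RefSeq gene (GRCm38.p6), read 5′ to 3′ on the minus strand, for Marco at chr1:120505025-120505274, for Cd36 at chr5:17835897-17836146, for Clec4e at chr6:123289872-123290121 and for Scarb2 at chr5:92505658-92505907. Capitals mark matches to a motif on either strand.
Marco: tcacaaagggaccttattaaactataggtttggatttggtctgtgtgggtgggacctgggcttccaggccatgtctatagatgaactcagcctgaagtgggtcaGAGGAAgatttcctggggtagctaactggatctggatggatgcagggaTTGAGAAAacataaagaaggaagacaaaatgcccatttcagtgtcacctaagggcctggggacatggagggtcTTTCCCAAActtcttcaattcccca
Cd36: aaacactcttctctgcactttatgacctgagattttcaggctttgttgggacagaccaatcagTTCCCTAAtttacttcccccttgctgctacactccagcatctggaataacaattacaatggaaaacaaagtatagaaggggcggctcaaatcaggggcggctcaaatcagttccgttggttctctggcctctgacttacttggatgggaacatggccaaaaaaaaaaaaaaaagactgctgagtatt
Clec4e: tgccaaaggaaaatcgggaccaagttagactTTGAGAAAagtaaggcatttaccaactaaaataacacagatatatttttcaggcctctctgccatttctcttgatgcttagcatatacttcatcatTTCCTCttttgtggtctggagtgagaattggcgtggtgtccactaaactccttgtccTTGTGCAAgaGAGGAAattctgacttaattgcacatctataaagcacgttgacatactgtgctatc
Scarb2: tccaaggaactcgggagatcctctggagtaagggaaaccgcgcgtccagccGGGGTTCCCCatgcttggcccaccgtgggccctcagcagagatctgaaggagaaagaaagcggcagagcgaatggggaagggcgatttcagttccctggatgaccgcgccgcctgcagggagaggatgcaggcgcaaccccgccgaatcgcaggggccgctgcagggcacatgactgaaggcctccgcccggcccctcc
The motifs searched were C/EBP as TTNNGNAA, PU.1 as GAGGAA, AP-1 as TGANTCA, the E-box as CACGTG and NF-kappa B by name. A C/EBP match was present at 3 positions in Marco, of which a pair overlap each other, at 1 position in Cd36 and at 2 positions in Clec4e, and in 36.8% of all 32851 promoters of this length. PU.1 letters were found at 1 position in Marco and at 2 in Clec4e, against 23.3% of all promoters. The single match in Scarb2 was to NF-kappa B, which 7.25% of all promoters held, and neither AP-1 (6.75% of all) nor the E-box (6.02% of all) was matched in these 4 windows. No match of one motif overlapped a match of another. These matches describe letters in a short window and do not show binding. Promoters of 8 of the 10 genes were in the table used, and those of Msr1 and Scarb1 were not looked up elsewhere. Among the genes not called and not shown, C/EBP letters were at 3 positions in Cd68, 2 in Cd163, 2 in Mrc1 and 0 in Stab1. PU.1 letters were at 1 position in Cd68, 3 in Mrc1, 1 in Stab1 and 0 in Cd163. AP-1 letters were at 2 positions in Cd68. Matches to C/EBP and PU.1 were thus not limited to the genes that rose.

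The deposited table gives between 7510000 and 19700000 alignments per retina, and between 6552 and 11825 genes reached an RPKM of 1. In 4 retinas (naïve 3, naïve 4, 18 h 4 and 2 weeks 1) fewer than 8000 genes did so. The 14 microglial markers examined, among them Cx3cr1 and P2ry12, summed to between 4674 and 24312 RPKM, and 6 of them were lower at 4 h and 7 lower at 18 h. A gene was called when limma on log2(RPKM + 1) gave a Benjamini-Hochberg adjusted p of at most 0.05 over all genes tested and a fold change of at least 2. By this rule 485 genes were higher and 578 lower at 4 h, and 374 were higher and 244 lower at 18 h. Setting the summed RPKM of all retinas equal turned the split to 409 higher and 1001 lower at 4 h and to 226 higher and 469 lower at 18 h.

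At 18 h after LPS, 4 of the 10 receptor genes were higher than in naïve retinas (Marco, Msr1, Cd36 and Clec4e) and 1 was lower (Scarb2). Of all genes tested, 2.84% were called higher and 1.85% lower in this comparison. Marco passed the filter only through its 18 h retinas, and the 10 genes were chosen with earlier results of these data known. The count is therefore a description. None of the 10 was called at 4 h, when 3.68% of all genes were called higher and 4.39% lower, and none at 2 weeks, when the shares were 0.0076% and 0%. An unadjusted limma p under 0.05 was reached by 2700 of the 13164 genes at 4 h and by 378 of them at 2 weeks. Among these were 3 of the 10 at 4 h (Clec4e, Cd163 and Scarb2) and 1 at 2 weeks (Clec4e), and the counts are given as a description. The median difference of the 10 genes on the log2(RPKM + 1) scale was -0.42 at 4 h, 0.18 at 18 h and -0.08 at 2 weeks, beside -0.11, -0.08 and 0.07 for all genes tested. All 5 genes called at 18 h had retinas that did not overlap with the naïve ones, as was the case upward for 2.05% and downward for 1.3% of all genes. Since RNA was pooled over cells of each retina, more cells expressing a receptor and more RNA per cell cannot be told apart.

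**Figure D1:**
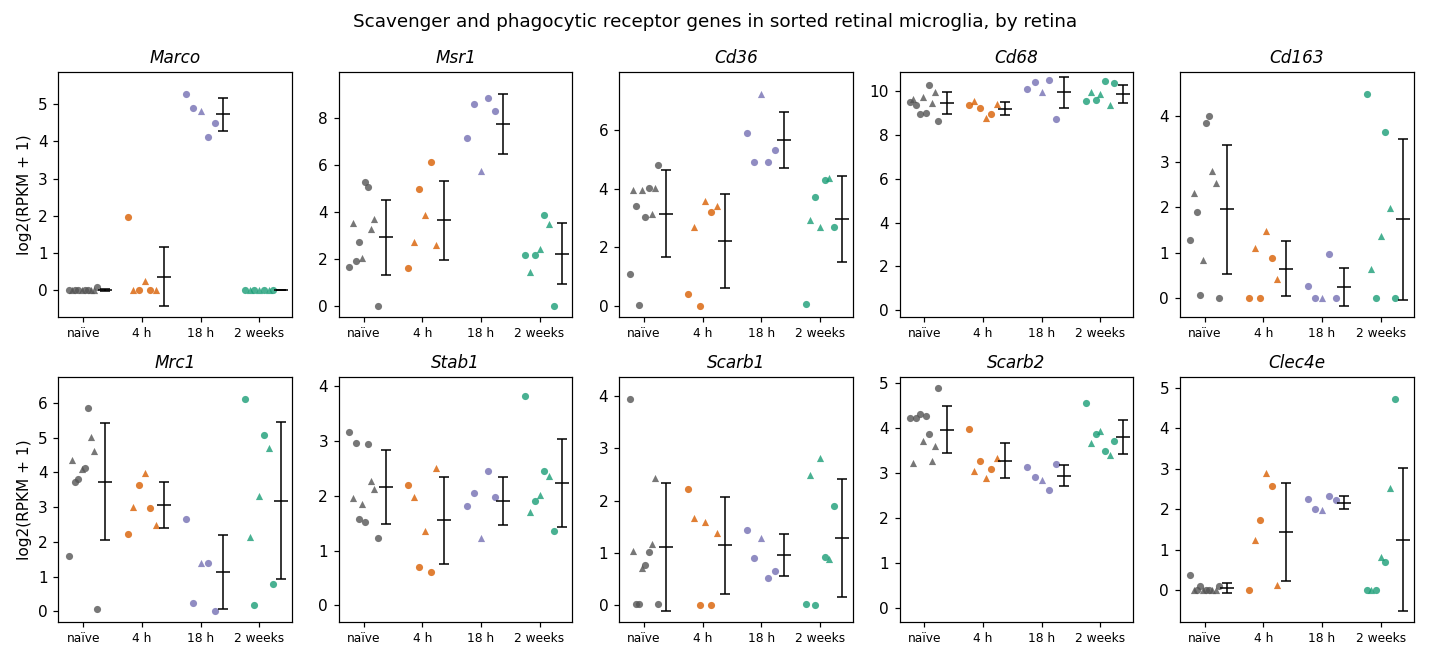
Level of each receptor gene in log2(RPKM + 1) (y axis) in naïve, 4 h, 18 h and 2-week retinas (x axis); circles are retinas of experiment 1, triangles of experiment 2, and bars show the mean ± SD. For Marco, Msr1, Cd36 and Clec4e all 5 retinas at 18 h lie above all 10 naïve retinas, and for Scarb2 all 5 lie below.

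Marco, the class A receptor that binds bacteria and particles, went from no detectable level to at least 16.4 RPKM in every retina at 18 h. The gene lies at chr1:120474538-120505024 on the minus strand (GRCm38). It was listed at 0 in 9 of 10 naïve retinas and at 0.0583 RPKM in naïve 4, a value of about 1 read, since 1 read corresponds to 0.0264 to 0.0692 RPKM for its longest coding transcript. At 4 h it was at 0 in 4 of 6 retinas, at 0.179 in one and at 2.90 in another. The 18 h retinas had 37.6, 16.4, 28.9, 21.7 and 27.3 RPKM, and all 7 retinas at 2 weeks were listed at 0. Thus every 18 h retina had more Marco than any retina of another group. The difference between 18 h and naïve was 4.72 ± 0.26 (SE) on the log2(RPKM + 1) scale with an adjusted p of 7.1e-14. That size depends on the pseudocount, because naïve retinas are at or near 0, and it was 7.93 with a pseudocount of 0.1. Between 18 h and 4 h the difference was 4.36 ± 0.29 (adjusted p = 3.56e-12). Marco passed the filter only through its 18 h retinas, so neither p-value is independent of how the gene came to be tested. In experiment 1 alone the 18 h difference was 4.69, and in experiment 2 the single 18 h retina had 27.3 RPKM while its 4 naïve retinas were at 0.

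Msr1, the founding class A receptor for modified lipoproteins (chr8:39581685-39642673, minus strand), was listed above 0 in every retina and reached the second highest level of the 10 genes at 18 h. Naïve retinas ranged from 0.0177, no more than about 1 read, to 38.2 RPKM with a median of 7.19. At 4 h the range was 2.06 to 68.8 with a median of 9.75, and 1 of 6 retinas exceeded all naïve ones. The 18 h retinas had 140, 465, 392, 314 and 53.6 RPKM, all above the naïve range, whereas the 2-week retinas had 0.0133 to 13.9 with a median of 3.60, 1 of 7 lying below all naïve ones. The 18 h difference was 4.80 ± 0.76 (adjusted p = 0.000100) from naïve and 4.08 ± 0.84 (adjusted p = 0.00206) from 4 h. The lowest 18 h value, 53.6, was the single retina of experiment 2, in which the difference was 2.62 (adjusted p = 0.126), beside 5.44 (adjusted p = 0.00613) in experiment 1. In that fit of experiment 2 the lone 18 h retina was assumed to vary like the other groups.

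Cd36, a class B receptor that takes up long-chain fatty acids and oxidised lipoproteins, rose at 18 h from an already measurable level. The annotated gene spans chr5:17781690-17888801 on the minus strand, and the promoter shown above lies within that span, at the start that RefSeq lists. Naïve retinas ranged from 0.0327 to 27.0 RPKM (median 12.1), 4 h retinas from 0 to 11.1 (median 6.84) and 2-week retinas from 0.0563 to 19.7 (median 6.73). The 18 h retinas had 58.4, 29.5, 29.5, 39.7 and 150 RPKM and did not overlap with any other group. Here the retina of experiment 2 was the highest, in contrast to Msr1. The difference from naïve was 2.51 ± 0.73 (adjusted p = 0.0375), and from 4 h it was 3.45 ± 0.80 (adjusted p = 0.00717). The call against naïve was lost when naïve 1, naïve 3 or any 1 of the retinas at 18 h was left out, with adjusted p up to 0.140 and a difference of 2.12 without 18 h retina 5. It was also lost in experiment 1 alone (2.54, adjusted p = 0.195). In experiment 2 the single 18 h retina had 150 RPKM beside 7.93 to 15.3 in its 4 naïve retinas.

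The other class B genes did not rise. Scarb2, which codes for a lysosomal membrane protein that carries glucocerebrosidase to the lysosome, was expressed in all 28 retinas and fell by 1.02 ± 0.30 at 18 h (adjusted p = 0.0430). Naïve retinas ranged from 8.25 to 28.6 RPKM (median 15.6). The 18 h retinas had 7.75, 5.14, 6.51, 8.14 and 6.20 RPKM, each below the lowest naïve retina. At 4 h the range was 6.35 to 14.8 (median 8.07) with 3 of 6 retinas below all naïve ones, and the difference of -0.69 ± 0.28 was not called (adjusted p = 0.145). At 2 weeks the range of 9.59 to 22.3 lay inside the naïve range.

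The naïve level of Scarb2 differed between experiments, with 13.6 to 28.6 RPKM in the 6 retinas of experiment 1 and 8.25 to 12.1 in the 4 of experiment 2, and 4 of the 5 retinas at 18 h were from experiment 1. With the experiment as a covariate the 18 h difference was -1.11 (adjusted p = 0.0118). Within experiment 1 it was -1.33 (adjusted p = 0.109) and within experiment 2 -0.60 (adjusted p = 0.435). The call rested near both thresholds and was kept in 11 of 28 fits that each left out a retina, among which the difference ranged from -1.10 to -0.91. It was also lost without the 4 retinas with the fewest genes (-0.92, adjusted p = 0.0322, a fold change under 2). Scarb2 overlaps the microRNA gene Mir6415 on the opposite strand, and the counting is not stated to use strand. The annotated Scarb2 gene spans chr5:92441314-92506833 on the minus strand. Its promoter shown above lies within that span, at the start that RefSeq lists.

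Scarb1, the high-density lipoprotein receptor, stayed at a low level. Its median RPKM was 0.862 in naïve retinas and 1.79, 0.864 and 0.894 at the 3 times after LPS. The highest value was 14.3 in naïve 1, while naïve 3, 4 and 6 had 0.0138, 0.0132 and 0.0124, less than the lowest worth of 1 read (0.0201). The 18 h difference was -0.15, with a 95% confidence interval of -1.25 to 0.95, so that a change of up to about that size in either direction cannot be told from none.

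Cd68, the gene with the highest level of the 10 in every group, codes for a glycosylated protein of the lysosomal membrane used as a marker of phagocytes. Its naïve values ranged from 396 to 1238 RPKM (median 716), followed by 440 to 758 (median 631) at 4 h. At 18 h the retinas had 1109, 1474, 1396, 432 and 1020 RPKM, and at 2 weeks the values ranged from 673 to 1431 (median 943). Thus 2 of 5 retinas at 18 h and 2 of 7 at 2 weeks were above the naïve range, and the lowest 18 h value was from retina 4, which was also low in the number of genes detected. None of its differences was called, with 0.51 ± 0.28 at 18 h (adjusted p = 0.360) and 0.44 ± 0.25 at 2 weeks (adjusted p = 1). The level of Cd68 at 18 h was 0.75 ± 0.31 above that at 4 h (adjusted p = 0.188). This difference was called without the 4 retinas with the fewest genes (1.05, adjusted p = 0.00893) and without 18 h retina 4 alone (adjusted p = 0.0305).

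Clec4e, the lectin that recognises mycobacterial glycolipids and a nuclear protein released by dead cells, was close to absent in naïve retinas. It lies at chr6:123281789-123289870 on the minus strand. Of 10 naïve retinas 7 were at 0, and the highest had 0.297 RPKM. At 4 h the values ranged from 0 to 6.40 (median 1.85), and 4 of 6 retinas were above all naïve ones. The 18 h retinas had 3.76, 4.02, 3.00, 3.71 and 2.96 RPKM, the tightest group of values among the genes called, with a mean of 3.49 ± 0.48 (SD, n = 5). At 2 weeks 3 of 7 retinas were at 0, 4 exceeded the naïve range, and 2 of these were high, with 25.3 RPKM in 2-week retina 4 and 4.72 in retina 7. The 18 h difference was 2.10 ± 0.54 (adjusted p = 0.0162), while the differences of 1.37 ± 0.51 at 4 h (adjusted p = 0.0948) and 1.19 ± 0.48 at 2 weeks (adjusted p = 1) were not called. The call at 18 h was lost without the filter on low values (adjusted p = 0.0590) and in experiment 1 alone (2.11, adjusted p = 0.152). In experiment 2 the 18 h retina had 2.96 RPKM and all 4 naïve retinas were at 0. Without 2-week retina 4, whose value widens the spread shared by all groups, the 4 h difference was called (adjusted p = 0.0144).

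**Figure D2:**
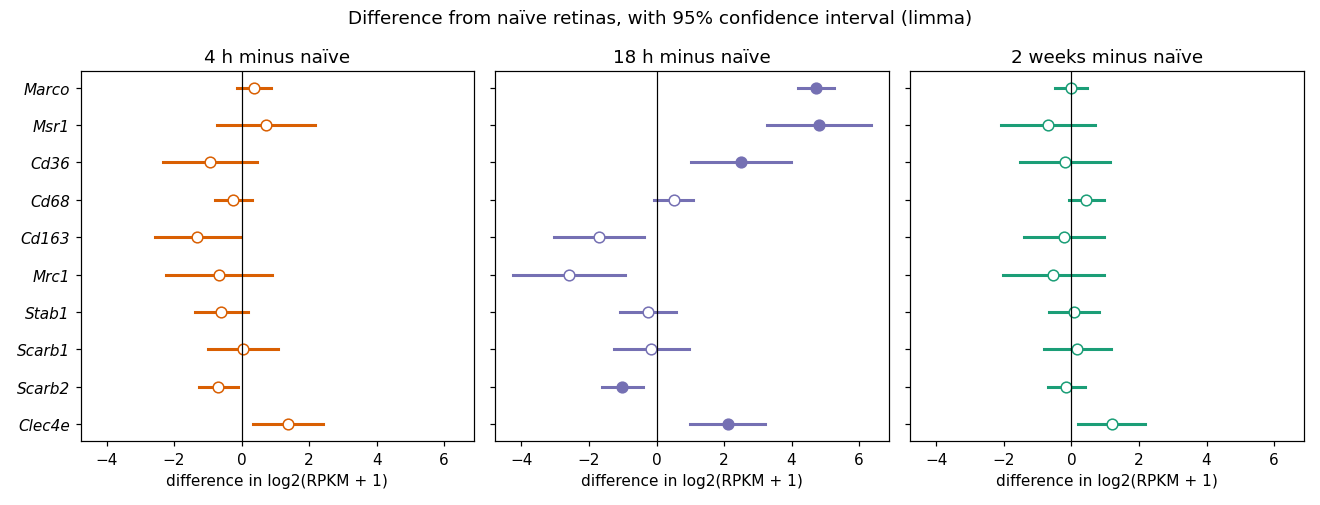
Difference of 4 h, 18 h and 2-week retinas from naïve retinas in log2(RPKM + 1) (x axis) for each receptor gene (y axis); points are limma estimates, lines 95% confidence intervals, and filled points are called. The 5 filled points are all at 18 h, with Marco at 4.72 and Msr1 at 4.80 farthest to the right and Scarb2 at -1.02.

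The endocytic receptors Cd163, Mrc1 and Stab1 had no called difference, and Mrc1 and Cd163 had their lowest medians at 18 h. Mrc1, the mannose receptor, ranged from 0.0529 to 56.3 RPKM in naïve retinas (median 16.4) and from 3.71 to 14.9 at 4 h (median 6.91). The 18 h retinas had 5.38, 1.61, 0.179, 0.0138 and 1.64 RPKM, of which 1 was below all naïve retinas and the others lay within the wide naïve range. At 2 weeks the range was 0.130 to 67.7 (median 9.03). The difference at 18 h of -2.58 ± 0.81 had an adjusted p of 0.0615. It was called without naïve 1, naïve 4, or 2-week retina 1 or 3 (adjusted p from 0.0134 among these fits), with a filter at an RPKM of 5 (adjusted p = 0.0481), with summed RPKM set equal (adjusted p = 0.0424) and without the 4 retinas with the fewest genes (-2.75, adjusted p = 0.0218). The microRNA gene Mir511 lies within Mrc1 on the same strand.

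Cd163, the receptor for haptoglobin bound to haemoglobin, had a naïve median of 3.34 RPKM with a range of 0 to 15.2. It was listed at 0 in 2 of 6 retinas at 4 h and did not exceed 1.80 there. At 18 h it was at 0 in 3 of 5 retinas, with 0.206 and 0.958 RPKM in the others, and at 2 weeks it ranged from 0 to 21.5 (median 1.57). The differences of -1.31 ± 0.61 at 4 h and -1.71 ± 0.65 at 18 h were not called (adjusted p = 0.219 and 0.140), and both were called once the 4 retinas with the fewest genes were left out (-1.79, adjusted p = 0.0183, and -2.13, adjusted p = 0.0232). These 4 retinas include naïve 3 and naïve 4, in which Cd163 was at 0.0430 and 0 RPKM.

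Stab1, which codes for a large endocytic receptor for matrix and growth factor ligands, was not called at any time. Its median RPKM was 3.14 in naïve retinas and 2.26, 2.92 and 3.03 at the 3 times after LPS. At 4 h 2 of 6 retinas were below all naïve ones, and the difference was -0.60 with a 95% confidence interval of -1.39 to 0.18. The 18 h difference was -0.26 with a 95% confidence interval of -1.09 to 0.57. The gene overlaps Nt5dc2 on the opposite strand, whose reads cannot be separated without strand.

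**Figure D3:**
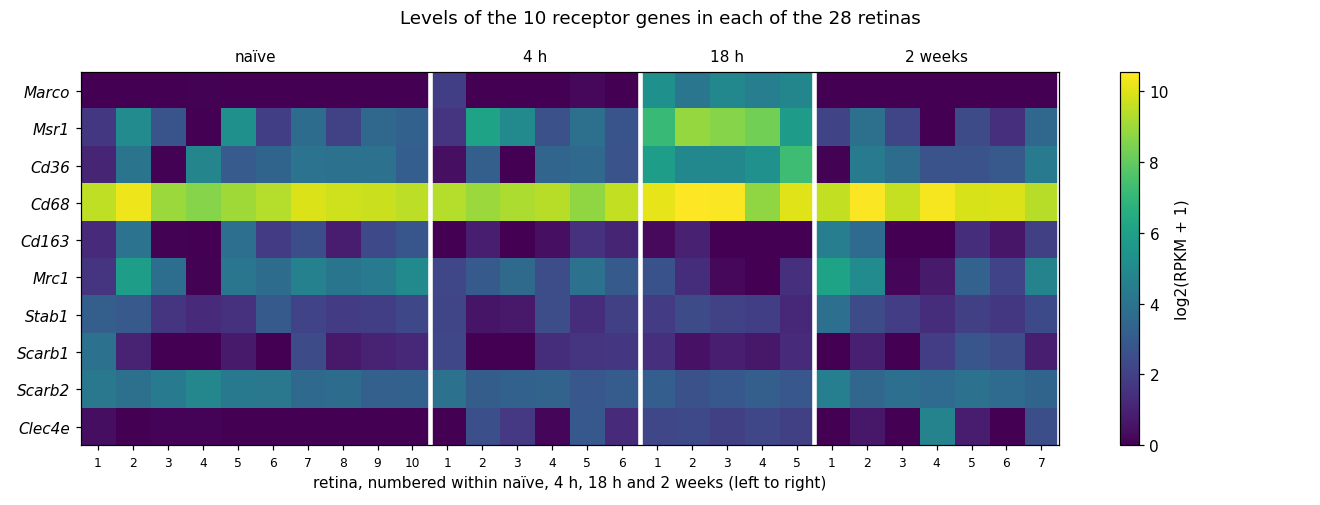
Level of the 10 receptor genes (rows) in each of the 28 retinas (columns, numbered within groups), coloured by log2(RPKM + 1). The Marco row is dark outside 18 h except for 4 h retina 1 (2.90 RPKM), and the Mrc1 and Cd163 rows are uneven within the naïve and 2-week groups.

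The order of the levels changed with time. In naïve retinas the medians ran from Cd68 (716 RPKM) through Mrc1 (16.4), Scarb2 (15.6), Cd36 (12.1), Msr1 (7.19), Cd163 (3.34), Stab1 (3.14) and Scarb1 (0.862) to Marco and Clec4e, both at 0. Cd68 was above the others in every naïve retina, and the ranges of all later neighbours in this order overlapped. At 18 h the order was Cd68 (1109), Msr1 (314), Cd36 (39.7), Marco (27.3), Scarb2 (6.51), Clec4e (3.71), Stab1 (2.92), Mrc1 (1.61), Scarb1 (0.864) and Cd163 (0). There the range of Marco lay above that of Scarb2 and the range of Scarb2 above that of Clec4e, while the ranges of the other neighbours overlapped. By 2 weeks Cd68, Scarb2, Mrc1, Cd36 and Msr1 again held the first 5 places.

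Mrc1 and Cd163 were uneven within the naïve and 2-week groups. The 4 retinas with the most Cd163 were 2-week retina 1 (21.5 RPKM), naïve 2 (15.2), naïve 5 (13.4) and 2-week retina 2 (11.7), and they had 67.7, 56.3, 16.6 and 32.9 RPKM of Mrc1, of which the third was near the naïve median of 16.4. Their summed level of 12 markers of border-associated macrophages, the macrophages of vessels and membranes, was 652, 810, 659 and 684 RPKM. The median of that sum was 449 in naïve and 181 in 2-week retinas. In naïve 4, where Cd163 was at 0 and Mrc1 at 0.0529, that sum was 104. Other retinas did not follow this order. Naïve 3, with Cd163 at 0.0430, had a sum of 437, and naïve 1, with the lowest naïve sum (52.5), had Cd163 at 1.44. The highest sums, in 4 h retina 2 (1830) and 18 h retina 2 (1266), went with Cd163 at 0.841 and 0.958. These retinas were picked for their Cd163 level or their sum, so the values are a description. The part of such cells in the levels of Mrc1 and Cd163 was not tested.

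Markers of other cell types were read in the same retinas. None of the 9 border-associated macrophage markers tested was called at any time, and the list summed to 52.5 to 810 RPKM in naïve retinas. The sum was 187 to 1830 at 4 h and 278 to 1266 at 18 h, and it was 39.4 to 684 at 2 weeks. At 18 h the median was above the naïve one for 4 of the 12 markers, below it for 6 and equal to it for 2. Wfdc17 made up most of the sum (median 606 RPKM beside 105 in naïve retinas), and Clec4n (7.43 beside 2.84) and Siglec1 (0.892 beside 0.0964) were also higher in median. Lyve1 (0.0303 beside 6.44), Pf4 (25.1 beside 174) and Folr2 (4.05 beside 16.6) were lower in median.

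The 10 monocyte markers summed to 152 to 322 RPKM at 18 h, and all 5 retinas there lay above the naïve range of 10.1 to 57.0. At 4 h the sum was 6.76 to 174, with 2 of 6 retinas above the naïve range, and at 2 weeks it was 13.8 to 41.7. Most of the sum was Ms4a4c, with a median of 226 RPKM at 18 h and 21.8 in naïve retinas. Of the defining monocyte genes, Ly6c2 was listed at 0, 1.57, near 0, 0.0321 and 4.68 RPKM in the 5 retinas at 18 h. Ccr2 had 1.15, 0, 0.107, 0 and 0.271. In 9 of the 10 markers the median at 18 h was above the naïve one, for instance for Plac8 (6.63 RPKM beside 0.108), Ifitm6 (1.56 beside 0.0518), Hp (1.45 beside 0) and Fn1 (0.251 beside 0.00983). In 18 h retina 5 Ly6c2, Plac8 (27.5 RPKM) and Fn1 (17.0 RPKM) were at their highest, as was Cd36 (150 RPKM), whereas Msr1 was at its lowest 18 h value there. The markers of the list were not all high in that retina. Hp and Chil3 were at 0, and Ccr2 (0.271 RPKM), Ifitm6 (1.56) and Ms4a4c (226) were below their highest 18 h values of 1.15, 13.2 and 315. The sort for tdTomato after an interval of 4 weeks is meant to leave out circulating monocytes, and the part of any such cells in the rise of Marco, Msr1, Cd36 and Clec4e was not tested.

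Of the 12 neutrophil markers, 11 were under an RPKM of 1 in all naïve and all 4 h retinas, and 6 of the 12 were so at 18 h. Their sum at 18 h was 2.86 to 31.9 beside 5.60 to 83.0 in naïve retinas, where most of it was Csf3r. Csf3r had a median of 10.2 RPKM at 18 h beside 16.9 in naïve retinas. The median at 18 h was above the naïve one for 3 of the 12 markers, below it for 2 and equal to it for 7. S100a8 and S100a9 were at 0 in every naïve retina and reached 9.24 and 5.15 RPKM at 18 h, with medians of 0.638 and 0.994. Rod photoreceptor markers were found in every retina, with 1726 to 4966 RPKM in naïve and 1113 to 1912 at 18 h. Müller glia markers summed to 273 to 4994 in naïve and 166 to 1813 at 18 h. In each of these lists 1 marker was called lower at 18 h (Nrl and Glul), where 1.85% of all genes were. The 18 h median was below the naïve one for all 10 rod markers. It was below for 7 of the 10 Müller glia markers and above for 3. Endothelial markers did not exceed 4.11 RPKM in sum.

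**Figure D4:**
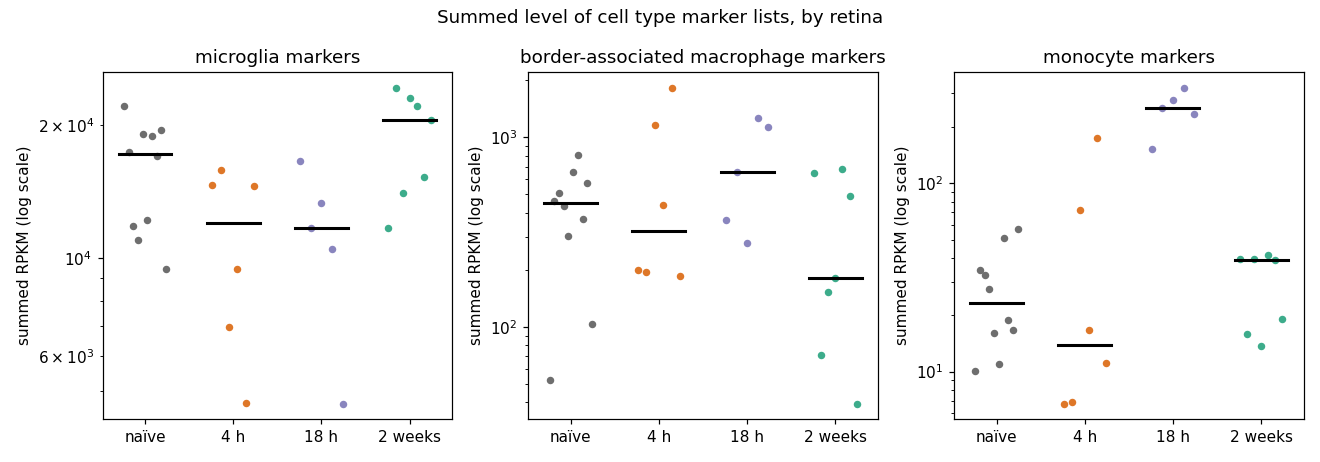
Summed RPKM (y axis, log scale) of the microglia, border-associated macrophage and monocyte marker lists in naïve, 4 h, 18 h and 2-week retinas (x axis); points are retinas and lines are medians. The monocyte list at 18 h (152 to 322) lies above all naïve retinas (10.1 to 57.0), and the border-associated macrophage list at 18 h (278 to 1266) overlaps with the naïve one (52.5 to 810).

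Comparing 18 h directly with 4 h, 3 of the 10 receptors were higher (Marco, Msr1 and Cd36) and none lower, while 2.92% of all genes were higher and 2.51% lower. Clec4e did not differ by the rule (0.73 ± 0.59, adjusted p = 0.619), nor did Mrc1 (-1.91 ± 0.90, adjusted p = 0.278). Whether the 4 h response differed between the 2 experiments was tested as an interaction. None of the 10 receptors was called there, at an adjusted p of 1 for each, and 0.0988% of all genes were. At 2 weeks the largest difference among the 10 after that of Clec4e was that of Msr1, at -0.70 with a 95% confidence interval of -2.09 to 0.69.

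The genes whose 3 differences from naïve (the early, the 18 h and the 2-week one) were most like those of a called receptor were found by the mean absolute distance over all genes tested. For Marco these were Pilrb1 (0.05, 4.49 and 0.08 on the log2 scale), coding for a paired activating receptor, and Nkg7 (0, 4.36 and 0.19). Msr1 was closest to Marco itself and then to Aoah (1.22, 4.39 and 0.09), which codes for an enzyme that removes acyl chains from LPS. For Cd36 the closest were Afp and Ctsc, the latter coding for a lysosomal dipeptidyl peptidase, with differences of 2.21 and 1.99 at 18 h. The closest to Scarb2 were Garnl3 (-1.04 at 18 h) and Kdm2b (-0.99), and those to Clec4e were Rrp15 (2.14) and Surf4 (1.97). Pilrb1 has a close paralog, between which the quantification could divide reads.

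Other scavenger receptors were mostly below the filter, and 7 of 22 were tested. At 4 h 2 of the 7 were higher and none lower, with a median difference of 0.53, where 3.68% of all genes were higher and 4.39% lower and their median was -0.11. Cd14, which hands LPS to its receptor complex, went from 367 ± 145 (SD, n = 10) to 6671 ± 5786 RPKM (n = 6), a difference of 3.82 ± 0.42 (adjusted p = 6.42e-08). Cxcl16, a chemokine that also binds oxidised lipoprotein, rose by 3.29 at 4 h and by 2.63 at 18 h, where it was the only one of the 7 called. Cd14 was lower at 18 h than at 4 h.

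Phagocytic receptors outside the scavenger classes moved in both directions, and 27 of 30 were tested. At 4 h 1 was higher and 2 were lower, where 3.68% of all genes were higher and 4.39% lower, and at 18 h 4 were higher and 4 lower, where the shares were 2.84% and 1.85%. The median difference was -0.28 and -0.25, beside -0.11 and -0.08 for all genes. In experiment 1 alone 1 gene was called at 4 h and 4 at 18 h. The genes that rose at 18 h were the Fc receptor genes Fcgr1, Fcgr2b and Fcgr4 and Fcer1g, the signalling chain of activating Fc receptors. Fcgr4 went from 64.6 ± 37.5 to 574 ± 156 RPKM (difference 3.24, adjusted p = 1.39e-07) and Fcer1g from 1980 ± 508 to 6237 ± 1383 (1.69, adjusted p = 6.46e-05). Fcer1g is the chain through which Clec4e signals. The genes that fell at 18 h were Trem2, Mertk, Sirpa and Itgb3. Trem2, a microglial receptor for lipids and apolipoproteins, went from 129 ± 48.7 to 32.4 ± 20.1 RPKM (-2.08, adjusted p = 0.000519). Mertk, which binds dying cells through bridging ligands, fell by 2.31 at 4 h and by 1.81 at 18 h. Sirpa, the inhibitory receptor for CD47, was lower at both times, and Cd300lf was higher at 4 h (1.84, adjusted p = 0.0121). Fc receptor genes resemble each other in sequence, and reads shared among them were divided by the quantification.

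Of the C-type lectin genes and their signalling partners 16 of 19 were tested, with 2 higher and 2 lower at 4 h (3.68% and 4.39% of all genes) and 3 higher and none lower at 18 h (2.84% and 1.85% of all genes). The 4 called at 4 h became 2 without 4 h retina 5 and 1 in experiment 1 alone, and none was called at 18 h in experiment 2 alone, which has 1 retina at that time. Clec4a3 was lower at 4 h (-1.45, adjusted p = 0.0233) and higher at 18 h, when it went from 88.9 ± 44.3 to 413 ± 88.7 RPKM (2.37, adjusted p = 0.000872). Clec4a2 was lower at 4 h (-1.52), and Clec4a1 was higher at 18 h (3.47, adjusted p = 0.00157). These lectins lie in the same cluster of related genes as Clec4e, and similar members can share reads. Malt1, a protease that passes on lectin signals through CARD9, was higher at 4 h (2.15, adjusted p = 8.94e-05). Clec2d was higher at 4 h (1.88) and at 18 h (1.49).

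Of 29 lysosomal genes tested, none was higher and 1 lower at 4 h, and 1 was higher and 2 were lower at 18 h, beside all-gene shares of 3.68% and 4.39% and of 2.84% and 1.85%. The median difference of the list was -0.25 at 4 h, 0.09 at 18 h and 0.44 after 2 weeks, when that of all genes was 0.07. The count at 4 h was 0 without 4 h retina 2. Cd63, a tetraspanin of late endosomes, went from 166 ± 54.7 to 451 ± 61.7 RPKM at 18 h (1.50, adjusted p = 0.00240). Man2b1, a lysosomal mannosidase, was lower at 4 h and at 18 h (-1.40 and -1.95). Of 23 genes of lipid uptake and efflux tested, 1 was called at 4 h (Soat1, which esterifies cholesterol, at -1.40) and 1 at 18 h (Mylip, which targets the low-density lipoprotein receptor for degradation, at -1.65). Both were lower, as were 4.39% and 1.85% of all genes. The count at 4 h was between 0 and 4 over the alternatives, and was 2 without naïve 3, 4, 7, 9 or 10, 4 h retina 4 or 2-week retina 1. That at 18 h was between 0 and 2, and was 2 without 18 h retina 4. Their median difference was 0.14 at 4 h and -0.03 at 18 h, beside -0.11 and -0.08 for all genes. No gene of these 5 lists was called at 2 weeks.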

How the data were processed

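RNA of sorted microglia from 28 retinas was reverse-transcribed and amplified with SMART-Seq v4. Per the labels and the study's methods, reads were aligned with STAR 2.5.3a to mm10 and assigned to Ensembl transcripts by Partek's expectation-maximisation, which can divide a read between genes. The authors deposited 1 RPKM value per gene and retina, with the number of alignments. Very low values and zeros can come from that estimation, and whole reads were not recovered. The deposited tables of the authors' own comparisons (p-values, ratios, fold changes) were not used.

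Values were transformed to log2(RPKM + 1), which understates changes of low genes. Genes that reached an RPKM of 1 in 5 or more retinas were tested with limma 3.58.1 in R 4.3.3, with the 4 groups in 1 fit, a trend of the variance with the mean, and Benjamini-Hochberg adjustment over all 13164 genes. The other lists were written from general knowledge. The members and lists were chosen with earlier results of these data known. Named beyond the 10 members were, in each of 5 further lists, the 2 called genes with the largest increase and decrease at 4 h and 18 h, the 2 genes most like each called member, and markers. Fcgr1, Fcgr2b, Itgb3 and the 18 h values of Clec2d and Sirpa, and among markers those given with values, were named after their values were seen. Alternatives were a pseudocount of 0.1, no filter or one at an RPKM of 5, experiment as a covariate, a replicate block, each experiment alone, equal summed RPKM, untransformed RPKM and each retina left out. Leaving out the 4 retinas with fewer than 8000 genes was chosen after seeing the data. The results of some genes that this rule names are left out. The test was checked on simulated data, with changes of known size put into random genes at 18 h in 10 draws. Of changes of 1, 2, 3 and 4 on the log2(RPKM + 1) scale, up or down, 6.6%, 47.8%, 70.6% and 73.2% were called. Simulated falls stopped at an RPKM of 0. A median of 1.5 unchanged genes per draw was called. An uncalled difference at 18 h can therefore be a missed change. Gene positions are from GENCODE M21 (GRCm38), and promoters from RefSeq. Figures were drawn with Python 3.11.15.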

Additional observations from a re-analysis of the deposited data

Results flagged for a closer look

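In 5 of the 39 combinations of a gene and a group with differing values, 1 retina stood apart by Dixon's criterion. Values were compared on the log2(RPKM + 1) scale within the group. Chance passes this criterion in about 1 in 20 groups of normally distributed values. That share does not hold for groups with most values at 0, so the number flagged is a description. Marco was at 0.0583 RPKM in naïve 4 while the other 9 naïve retinas were at 0, and at 2.90 RPKM in 4 h retina 1 while the next value was 0.179. Cd36 was low in 2-week retina 1, at 0.0563 RPKM. Cd163 was at 0.958 RPKM in 18 h retina 2, beside 0.206 in the next. Clec4e was at 0.297 RPKM in naïve 1. Of these retinas, naïve 4 and 2-week retina 1 are among the 4 with fewer than 8000 genes, and the part of that in their values was not tested.

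For 3 genes the change from naïve at 18 h differed from the change at 4 h by the direct comparison of these groups in limma. The 18 h change was larger by 4.36 for Marco, by 4.08 for Msr1 and by 3.45 for Cd36 on the log2 scale, and all 5 retinas at 18 h exceeded all 6 retinas at 4 h for Marco and Cd36, while for Msr1 4 h retina 2 (68.8 RPKM) lay above 18 h retina 5 (53.6 RPKM).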

How the results depend on the processing

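Marco and Msr1 remained called at 18 h in all 28 fits that left out 1 retina, which kept the filter set on all retinas. Marco was also called in every other alternative in which it was tested, which leaves out experiment 2 alone. Since Marco passed the filter only through its 18 h retinas, this is a description. The number of the 10 receptors called at 18 h against naïve was 5, and it was 3 without a filter and 2 in experiment 1 alone. When 1 retina was left out it was between 3 and 6 (3 without naïve 3 or without 18 h retina 1, 2, 3 or 5). Against 4 h it was 3, and 1 in experiment 1 alone. In experiment 2 alone, with 1 retina at 18 h, Marco and Clec4e did not pass the filter, so no count is given. The count at 4 h was 0, and it was 1 with a pseudocount of 0.1 (Clec4e), with the replicate block (Scarb2) and without the 4 retinas with few genes (Cd163), and 0 to 1 when 1 retina was left out (1 without 2-week retina 4). With fewer retinas in a fit the test has less to work with, and the cause of the other changes was not tested. The correlation of deviations from the group means between same-numbered retinas of different groups had a median r of 0.0352 over 34 pairs. It ranged from -0.33 to 0.70, and 15 pairs exceeded 0.1. Between differently numbered retinas the median r was 0.0054. The numbers were not taken as pairs, though a median near 0 cannot exclude that some pairs deviated together. With the replicate block 4 receptors were called at 18 h, 1 at 4 h and 3 between 18 h and 4 h.

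Rescaling to equal summed RPKM moved the median difference of all genes from -0.11 to -0.28 at 4 h and from -0.08 to -0.26 at 18 h, and kept the signs of the 5 genes called at 18 h, but Mrc1 was then called and Cd36 was not (adjusted p = 0.0665). With a pseudocount of 0.1 Cd36 was not called at 18 h (adjusted p = 0.191), and on untransformed RPKM and with the replicate block Clec4e was not (adjusted p = 0.523 and 0.0710). Signs turned for some uncalled differences, not all of them near 0. For Scarb1 at 4 h the value was 0.03 and became -0.043 with the experiment as a covariate, -0.22 in experiment 1, -0.10 with equal summed RPKM, -0.57 on untransformed RPKM and -0.24 without the 4 retinas with few genes, and it ranged from -0.19 to 0.34 when 1 retina was left out. With a pseudocount of 0.1 Scarb1 was at 0.33 at 18 h and 0.27 against 4 h, with the covariate at 0.038 and in experiment 1 at 0.13 against 4 h, and at 2 weeks it was -0.25 in experiment 1 and -0.11 untransformed. Leaving out 1 retina gave Scarb1 -0.27 to 0.16 at 18 h, -0.41 to 0.033 against 4 h and -0.074 to 0.49 at 2 weeks. At 2 weeks Cd36 was at 0.055 with the replicate block and 0.12 without the 4 retinas, Cd163 at 0.19 in experiment 1 and 0.18 untransformed, Mrc1 at 0.061 untransformed, Stab1 at -0.023 in experiment 2 and -0.38 without the 4 retinas, and Scarb2 at 0.22 in experiment 2. Leaving out 1 retina gave at 2 weeks -0.68 to 0.066 for Cd163, -0.53 to 0.30 for Cd36 and -0.19 to 0.22 for Stab1. In experiment 2 Msr1 was at -0.076 at 4 h, beside 0.72 over all retinas, and Stab1 at -0.71 against 4 h, beside 0.35. In experiment 1 Cd163 was at 0.016 against 4 h, beside -0.40 over all retinas.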
